A study of Rattus norvegicus with 8 samples.

Results

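The 2 rows examined here were chosen by identifier as acute phase serpins, with earlier results of these data known. ENSRNOG00000007457 was given as Serping1 and ENSRNOG00000010410 as Serpina3n, 2 of the 32883 gene rows in the table. No table used here pairs these identifiers with symbols, so neither name was checked, and the rows are called the Serping1 row and the Serpina3n row below. Only the Serping1 row was detected: the Serpina3n row had 0 molecules in all 8 libraries.

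Serpins are a family of proteins, most of which trap a target protease through an exposed loop that the protease cleaves. Serping1 encodes C1 inhibitor, which blocks C1r and C1s, the proteases that start the classical complement cascade, and also plasma kallikrein and factor XII of the contact system. Serpina3n belongs to the alpha-1-antichymotrypsin group, which inhibits proteases such as those of neutrophil and mast cell granules. Both genes are known as part of the acute phase response of the liver, and in the injured nervous system both are used as markers of reactive astrocytes.

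The study asked how a cut on 1 side of the rat spinal cord at thoracic level 9 (a hemisection) changes gene expression in the uncut cord below it. Uninjured libraries came from lower spinal cord of Sprague Dawley rats without such an injury, and injured libraries from the same strain and tissue at 4 days after it, with 4 libraries in each group. The labels do not state an age, a sham operation, the side sampled or whether each library came from a separate animal, so p-values cover only how these libraries vary, which may be technical. RNA was counted as molecules with CEL-Seq2, which reads the 3' end of each transcript and tags each captured molecule so that amplified copies count once. The tissue was bulk cord, in which a change in the number of expressing cells and a change in RNA per cell cannot be told apart.

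Libraries held 119808 to 405537 molecules, and those numbered 3 were the shallowest of each group, with 119808 in the uninjured and 153060 in the injured one. Of all rows, 4159 passed the filter on low counts and were tested. The Serping1 row passed and the Serpina3n row did not. Markers of astrocytes, microglia and other cells, and the other serpins, complement and interleukin-6 genes, could not be matched to identifiers here, so neither the labelled tissue nor their levels were checked beside the 2 rows.

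The Serping1 row was higher after injury. Uninjured replicates 1 to 4 held 6, 8, 5 and 12 molecules of it, and injured replicates 1 to 4 held 38, 42, 9 and 31. In CPM, counts scaled to a common library size, this was 15.4, 35.2, 57.9 and 28.8 in the uninjured libraries and 105, 112, 70.1 and 131 in the injured ones. All injured libraries lay above all uninjured libraries, with the 2 libraries numbered 3 nearest to each other, and 3.08% of tested genes were separated in that direction.

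The mean was 34.3 ± 17.8 CPM without injury and 105 ± 25.4 CPM after it (SD, n = 4 each). Scaled by library totals alone, the means were 30.2 ± 10.7 and 99.0 ± 27.5 CPM. Uninjured replicate 3 had the lowest scaling factor of the libraries, 0.764. Its level was 41.7 CPM on library totals, against 57.9 CPM with that factor. On the log2 scale the fitted rise was 1.86 (standard error 0.36), which is 3.63-fold with a 95% interval from 2.15-fold to 6.13-fold (adjusted p = 0.0106 by the quasi-likelihood test of edgeR with Benjamini-Hochberg adjustment). The same test called 41 of the 4159 genes higher, 0.986% of those tested.

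**Figure D1:**
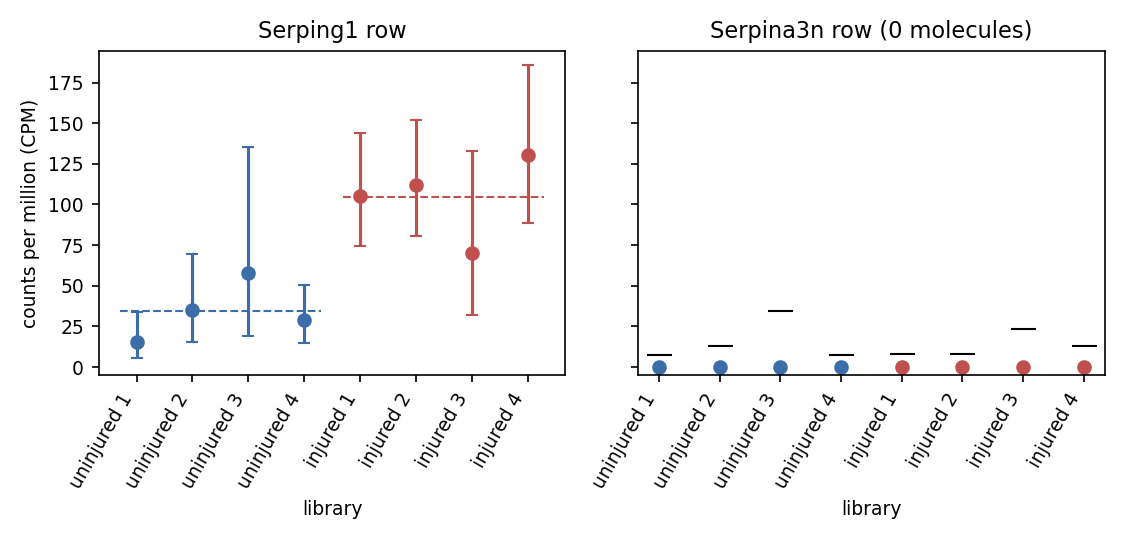
CPM (y axis) in each of the 8 libraries (x axis) for the Serping1 row (left) and the Serpina3n row (right), uninjured in blue and injured in red. Bars on the left are exact 95% Poisson intervals, which cover counting error only, and dashed lines are group means of 34.3 and 105 CPM. Black ticks on the right mark the level of 3 molecules in that library, between 7.20 and 34.8 CPM, above the points at 0.

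Counting error was large wherever the row held few molecules. The 5 molecules of uninjured replicate 3 gave an exact 95% Poisson interval of 18.8 to 135 CPM, and the 9 molecules of injured replicate 3 an interval of 32.1 to 133 CPM. These overlap almost whole, so a difference between the libraries numbered 3 was not detectable at these counts. In the deeper pair numbered 1, by contrast, the intervals did not overlap. The interval was 5.66 to 33.6 CPM for the uninjured library, which held only 6 molecules. For the injured library, with 38 molecules, it was 74.3 to 144 CPM.

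Same-numbered libraries of the groups varied together across genes for numbers 1, 2 and 4, which allows a comparison by number. For number 3 this was hardly so. After group means were removed, its 2 libraries correlated at 0.17. The uninjured one reached 0.16 with an injured library of another number. The injured to uninjured ratio of the Serping1 row was 6.81 for number 1 (exact 95% interval 2.86 to 19.7). For number 2 it was 3.18 (1.48 to 7.85), and for number 4 it was 4.54 (2.27 to 9.71). For number 3 it was 1.21 (0.364 to 4.60), an interval that holds 1. The injured library was thus above its partner in 4 of 4 pairs, as it was for 10.7% of the tested genes. For the Serping1 row any pairing would give this, since all injured libraries lay above all uninjured ones. In 3 of the pairs the difference was more than counting error. With the replicate number as a block, the log2 fold change was 1.94 (standard error 0.32, edgeR adjusted p = 0.00197), and the share of tested genes called higher was 2.26%.

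The row was low among tested genes without injury, a ranking that leaves out all rows under the filter. Its mean level stood at percentile 6.13 of the 4159 tested genes in uninjured libraries and at percentile 58.0 in injured ones, where the median tested gene stood at 86.3 CPM in both groups. Among tested genes, 22 had a larger fitted log2 fold change, and 21 of these were among the 41 called higher. The rise was close in size to the median of the called genes, 3.68-fold, in a range from 2.06-fold to 10.3-fold. Those genes include the Serping1 row and were selected by the same fit, so this closeness is a description. The row also passed the filter through the group in which it was high. The filter asks 32.5 CPM of at least 4 libraries, which 4 of 4 injured but 2 of 4 uninjured libraries reached. Its low rank in uninjured libraries is thus partly set by the filter. With no filter on low counts, where 12968 genes were tested, the log2 fold change was 1.84 (edgeR adjusted p = 0.000522). Its standard error was 0.384, against 0.359 in the main fit. The smaller adjusted p thus did not come from a larger or more precise estimate, and it adds no support.

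**Figure D2:**
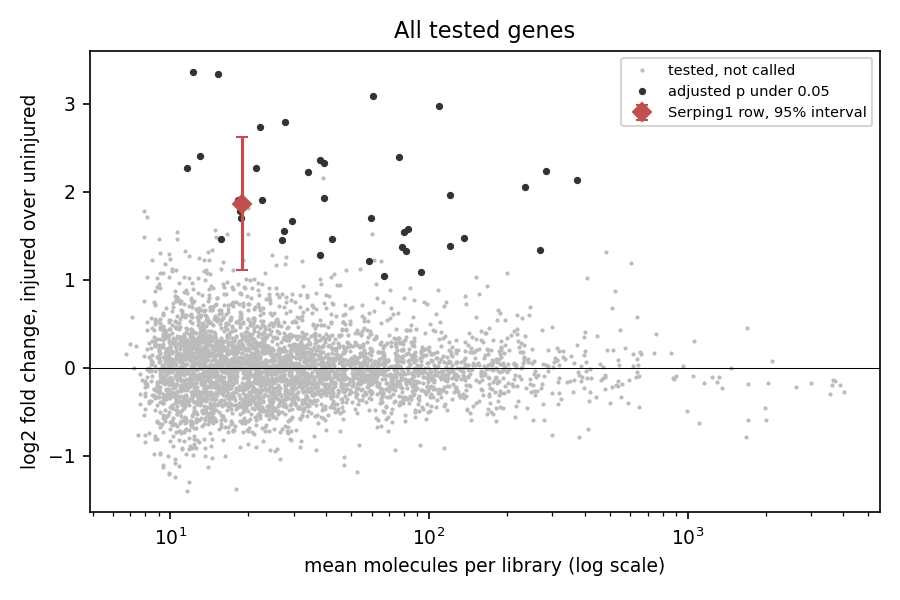
Fitted log2 fold change, injured over uninjured (y axis), against mean molecules per library on a log scale (x axis) for the 4159 tested genes. Dark points are the 41 genes with an adjusted p under 0.05, and the red diamond is the Serping1 row at 18.9 molecules and a log2 fold change of 1.86, with its 95% interval of 1.11 to 2.62.

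The call depended on which uninjured libraries were in the fit. Without uninjured replicate 1, the library with the lowest level, the log2 fold change was 1.56 and the call was lost (edgeR adjusted p = 0.0797, unadjusted p = 0.000617). It was also lost without uninjured replicate 4, at a log2 fold change of 1.85 (edgeR adjusted p = 0.0535, unadjusted p = 0.00034). Each of these fits called 23 genes, against 41 in the main fit. In the other 6 fits that left out 1 library the row passed, and over all 8 fits the log2 fold change ran from 1.56 to 2.04. Without both libraries numbered 3 it was 2.16 (edgeR adjusted p = 0.00854), a 95% interval of 1.39 to 2.92.

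**Figure D3:**
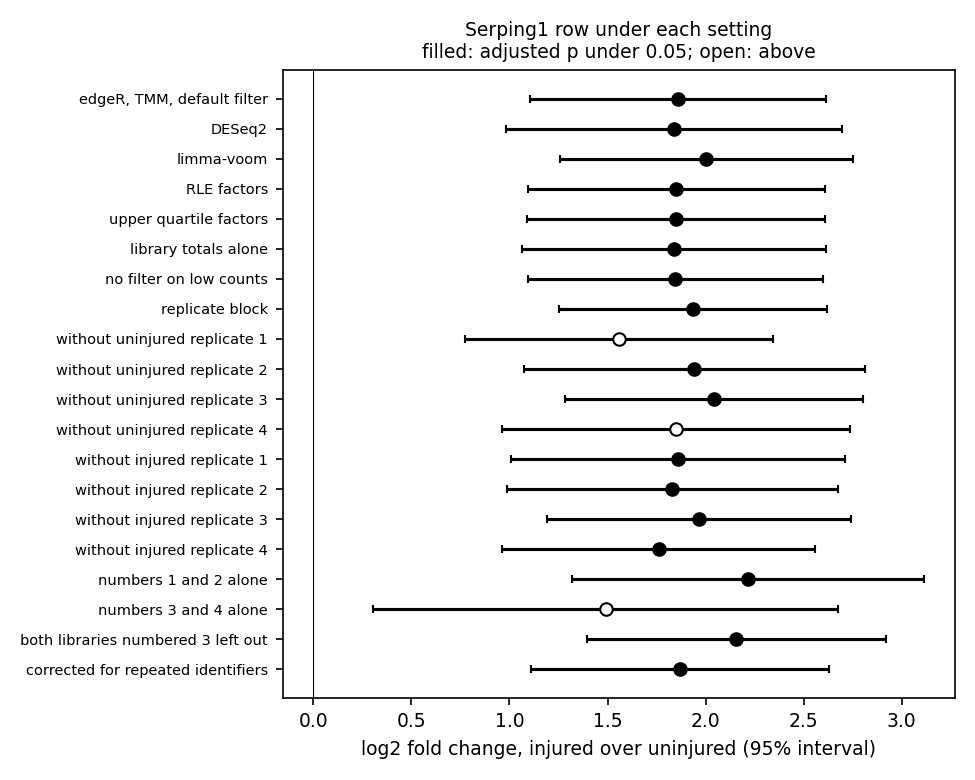
Log2 fold change of the Serping1 row, injured over uninjured (x axis, with 95% intervals), in the main fit (top line) and in 19 alternatives (y axis). Filled points have an adjusted p under 0.05 and the 3 open points do not, and all points lie between 1.49 and 2.22.

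Of the other 4158 tested rows, ENSRNOG00000023546 was the most alike in pattern, with a Pearson r of 0.996 on log2 CPM over the 8 libraries against a median r of -0.01 for all of them. Uninjured replicates 1 to 4 held 91, 123, 72 and 194 molecules of it, and injured replicates 1 to 4 held 734, 877, 172 and 734. In CPM these were 234, 542, 834 and 465 without injury and 2028, 2343, 1340 and 3096 after it. As in the Serping1 row, the library numbered 3 was the highest of the uninjured group and the lowest of the injured group. The order of all 8 libraries was the same in both rows. The row was picked for the highest r, so its likeness is a description. Points of 1 group share the difference between groups, and with group means removed r was 0.988. Points of 1 library share its scaling factor, in this value too. The row's own log2 fold change was 2.13 (standard error 0.34, edgeR adjusted p = 0.00321). A Pearson r above 0.9 with the Serping1 row was found for 41 rows. The genes called higher other than the Serping1 row had a median r of 0.92 with it. They were called for the same difference between groups, so a high r follows from that selection.

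**Figure D4:**
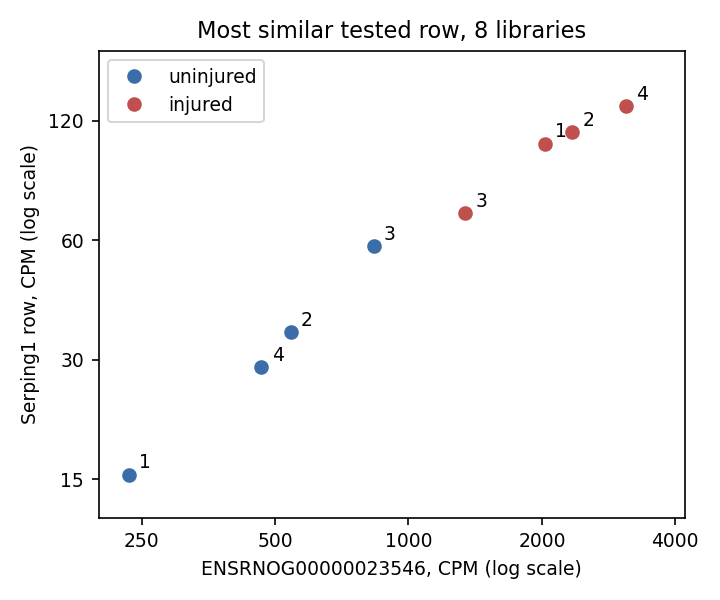
CPM of the Serping1 row (y axis, log scale) against CPM of ENSRNOG00000023546 (x axis, log scale) in 4 uninjured (blue) and 4 injured (red) libraries, each labelled with its replicate number. The 2 libraries numbered 3 lie in the middle, at 57.9 and 70.1 CPM of the Serping1 row.

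The Serpina3n row gave no measurement of a change. It held 0 of 2286186 molecules, and a count of 0 allows up to 3 molecules. Per library, 3 molecules correspond to 7.20 CPM in the deepest and 34.8 CPM in the shallowest one. Over a whole group they correspond to 2.68 CPM in the uninjured and 2.72 CPM in the injured libraries. A level under these limits was not detectable in either group, so no fold change is given. All-zero rows were common: 19915 of the 32883 rows, 60.6%, had no molecule in any library. In the RefSeq gene table for the later rat assembly GRCr8, 7 symbols begin with Serpina3, all on 1 chromosome, against 1 symbol that begins with Serping. Closely related copies can share reads, and the sources used here do not say how the authors counted such reads. Whether shared reads or the unchecked pairing of name and identifier lie behind the 0 was not tested. The value of 0 is therefore uncertain as a measure of the gene, and it holds for this identifier only.

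The 2 rows therefore could not be compared with each other in their response. The planned ratio of Serpina3n to Serping1 within each library had 0 in place of the first term throughout. Over whole groups, the Serping1 row held 31 molecules in uninjured and 120 in injured libraries, where the Serpina3n row held 0 in each.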

How the data were processed

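The authors made CEL-Seq2 libraries, per the labels' protocols, and deposited unnormalized counts of molecules for each Ensembl gene identifier. Per the submitters' processing notes, the build was Rnor_6.0 and the tools included HTSeq 0.6.0 and HISAT2 2.0.4. How molecule tags were collapsed, which annotation release was used and how reads were filtered are steps that the sources used here do not give. The members and gene lists were chosen with earlier results of these data known. The RefSeq table used here held no Ensembl identifier for any of its 47357 genes, so gene lists and cell type markers fixed by symbol were not tested, and genes are named by rule only as the 2 members and the identifier most alike to a detected member.

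Groups and replicate numbers came from the labels. The function filterByExpr, with minimum counts of 10 per library and 15 in total, retained genes that hold 92.5% to 94.3% of each library's molecules. Groups were compared in R 4.3.3 with the two-sided quasi-likelihood test of edgeR 4.0.16, using TMM scaling and a robust fit, with Benjamini-Hochberg p-values adjusted over the 4159 tested genes with a threshold of 0.05. It was tested on simulated data. Those data were built from the levels and variation estimated here, so they cannot show whether the test suits these libraries. Standard errors were derived from the fold change and the F statistic. CPM used each library's molecules in tested genes multiplied by its TMM factor, and log2 CPM a prior count of 3. DESeq2 1.42.0, limma-voom (limma 3.58.1), other scalings and filters, leave-out fits, thinning and a correction for repeated molecule tags, which takes 4096 possible tags, were alternatives. The permutation test was added after seeing the data. Intervals of counts and the limit of 3 molecules cover counting error only. Plots used matplotlib 3.10.9.

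The labels do not say what the shared replicate numbers mean. After group means were removed, same-numbered libraries correlated across tested genes at 0.39, 0.36, 0.17 and 0.45 for numbers 1 to 4. The highest correlation of each uninjured library with an injured library of another number was 0.24, 0.17, 0.16 and 0.02. The numbers were taken as pairs on these data, although number 3 was hardly set apart, and the fit without them is the main one.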

Additional observations from a re-analysis of the deposited data

How the results depend on the processing

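The Serping1 row was higher after injury in all 19 alternatives that fitted it, with a log2 fold change from 1.49 to 2.22 and an adjusted p from 0.000522 to 0.9995, and it passed the threshold in 16. Leaving out 1 library gave 1.56 to 2.04, with the call lost without uninjured replicate 1 or 4. In numbers 3 and 4 alone, 2 libraries against 2, it was 1.49 and the call was lost (edgeR adjusted p = 0.9995, unadjusted p = 0.0164). In numbers 1 and 2 alone it was 2.22 (edgeR adjusted p = 0.0113). An exact two-sided permutation test of log2 CPM gave a difference of 1.41 and p = 0.0286, the smallest that 4 against 4 libraries can give. It was added after the groups were seen not to overlap, which fixes that p, so it adds no support. Like the main fit, it leaves out the replicate numbers. The row had too few molecules to be tested with at least 20 counts in 4 libraries and in all 10 draws thinned to 119808 molecules. No alternative could be run for the Serpina3n row or for the planned ratio of both rows, since that row is at 0.

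The 41 called genes became 98 with no filter on low counts, 110 with the replicate block (94 higher, 16 lower), 86 in numbers 1 and 2 alone, 3 in numbers 3 and 4 alone, 62 without both libraries numbered 3 and 21.5 at the median of the thinned draws, where fewer genes were tested. Leaving out 1 library gave 23 to 77. The count stayed within 1.5 times in the other 12 of 21 alternatives. The replicate block did not change the call of the Serping1 row. The cause of the other moves was not tested. Depth limits the Serping1 row, which had 5 to 12 molecules in each uninjured library.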
